A study of Mus musculus with 6 samples.

Results

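Collagens are the 44 genes in this data set whose symbol has the form Col, a number, a and a number, and which had a probe set entry of their own on the array. They had 46 entries among the 21789 entries assigned to 1 gene, which covered 19938 genes. Where a collagen had more than 1 entry, the brightest was used. RNA was measured on 6 arrays, each hybridised with 1 sample. Stromal cells were sorted from digested lymph nodes (LN) of adult C57BL/6JJcl mice as cells without CD45 and CD31 and with podoplanin and VCAM-1, and gave 1 array, called LN stroma. BLS12 and BLS4 are stromal lines established from adult LN of BALB/cA mice. Each line gave 1 array after 2 days with 1 µg/ml of an agonistic antibody (goat, polyclonal) to the lymphotoxin β receptor (LTβR), and 1 array unstimulated. The labels named no control antibody. Fibroblasts grown from E11.5-13.5 embryos of C57BL/6JJcl mice (MEF) gave 1 array, the E number being the embryonic day. LN stroma came directly from tissue, whereas the lines and MEF had been cultured, the lines in DMEM with 10% serum. LN stroma therefore differed from MEF in tissue, age and culture, and from the lines in strain, in culture and in not being an established line, and within each comparison these factors cannot be told apart.

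Collagens are proteins of the extracellular matrix built from chains that wind into a helix, and each collagen gene encodes a chain. Fibrillar collagens such as types I, III and V form the tensile fibres of connective tissue, type IV collagen forms the sheet of basement membranes, and FACIT collagens (fibril-associated collagens with interrupted helices) sit on the surface of fibrils. Type VI collagen forms beaded filaments close to cells. In the lymph node, fibroblastic reticular cells make and ensheathe reticular fibres, which contain types I and III collagen within a basement membrane-like coat, and these fibres guide lymph through the organ. LTβR is a receptor of the TNF family on stromal cells through which lymphocytes induce and maintain lymphoid stroma.

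All values are given as log2 intensity, and differences are in log2 units, so that 1 unit is a doubling. The median over all entries lay between 5.69 and 5.82 on the 6 arrays. Levels of different genes were not set against each other, because probes differ in brightness. The 6 stroma markers fixed for the check of the labels (Pdpn, Vcam1, Pdgfra, Pdgfrb, Ltbr and Ccl19) were at or above the array median on all 6 arrays. MEF met this mark too, so it does not tell LN stroma or the lines from MEF. Ccl19 was at 12.49 in LN stroma but at 6.04 to 6.39 in the lines and MEF. Pdpn was lowest in LN stroma (10.20), against 10.42 to 11.68 on the other arrays. On the LN stroma array all 6 pericyte markers were also at or above the median, with a summed intensity of 9446 in LN stroma, against 298.588 to 379.756 in the lines and 2185 in MEF. That sum covers opposite differences against MEF: Rgs5, Notch3, Kcnj8 and Abcc9 were at least 4-fold higher in LN stroma, and Cspg4 (-2.11) and Mcam (-2.90) at least 4-fold lower. The summed endothelial markers came to 830 in LN stroma, against 399 to 458 in the lines and 802 in MEF. The close sums of LN stroma and MEF also cover opposite differences. Of the 8 endothelial markers compared between them, 4 were higher in LN stroma and 4 lower. Tek was at 8.18 in LN stroma and 5.18 in MEF, whereas Kdr was at 5.96 in LN stroma and 7.93 in MEF. At or above the array median were 7 of 10 endothelial markers in LN stroma and 4 in MEF. Ptprc, which encodes CD45, was below the array median in LN stroma (5.70), and Pecam1, which encodes CD31, was at 6.44. The 11 leukocyte markers summed to 540 in LN stroma, 524 to 1139 in the lines and 2110 in MEF. In RNA from mixed cells, fewer cells of a type and less RNA per cell cannot be told apart, and the part of pericytes, endothelium or leukocytes in the collagen values was not tested.

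Of the 44 collagens, 23 varied by at least 1 log2 unit over the 6 arrays (52.3%), beside 42.9% of 13166 genes at or above the median on at least 1 array. Among those 23, LN stroma held the highest value for 12, MEF for 6, unstimulated BLS12 for 3 (Col4a5, Col6a1 and Col6a2) and unstimulated BLS4 for 2 (Col12a1 and Col28a1). Neither antibody-treated array held the highest value of any of them. Among all 5644 genes with such a span, LN stroma held the highest value for 25.3% and MEF for 23.5%. The shares of the cell line arrays over all genes were not counted. The collagen counts for those arrays, with or without antibody, are therefore not read against genes at large. The other 21 collagens spanned 0.16 to 0.93. They included the type I collagen genes Col1a1 and Col1a2, the cartilage fibril gene Col2a1, the minor fibrillar genes Col11a2, Col24a1 and Col27a1, the basement membrane genes Col4a3 and Col4a4, and 7 FACIT genes (Col9a1, Col9a2, Col9a3, Col16a1, Col19a1, Col20a1 and Col22a1). The remaining 6 were Col8a2, the transmembrane collagen genes Col13a1, Col17a1 and Col25a1, the anchoring fibril gene Col7a1, and Col26a1.

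**Figure D1:**
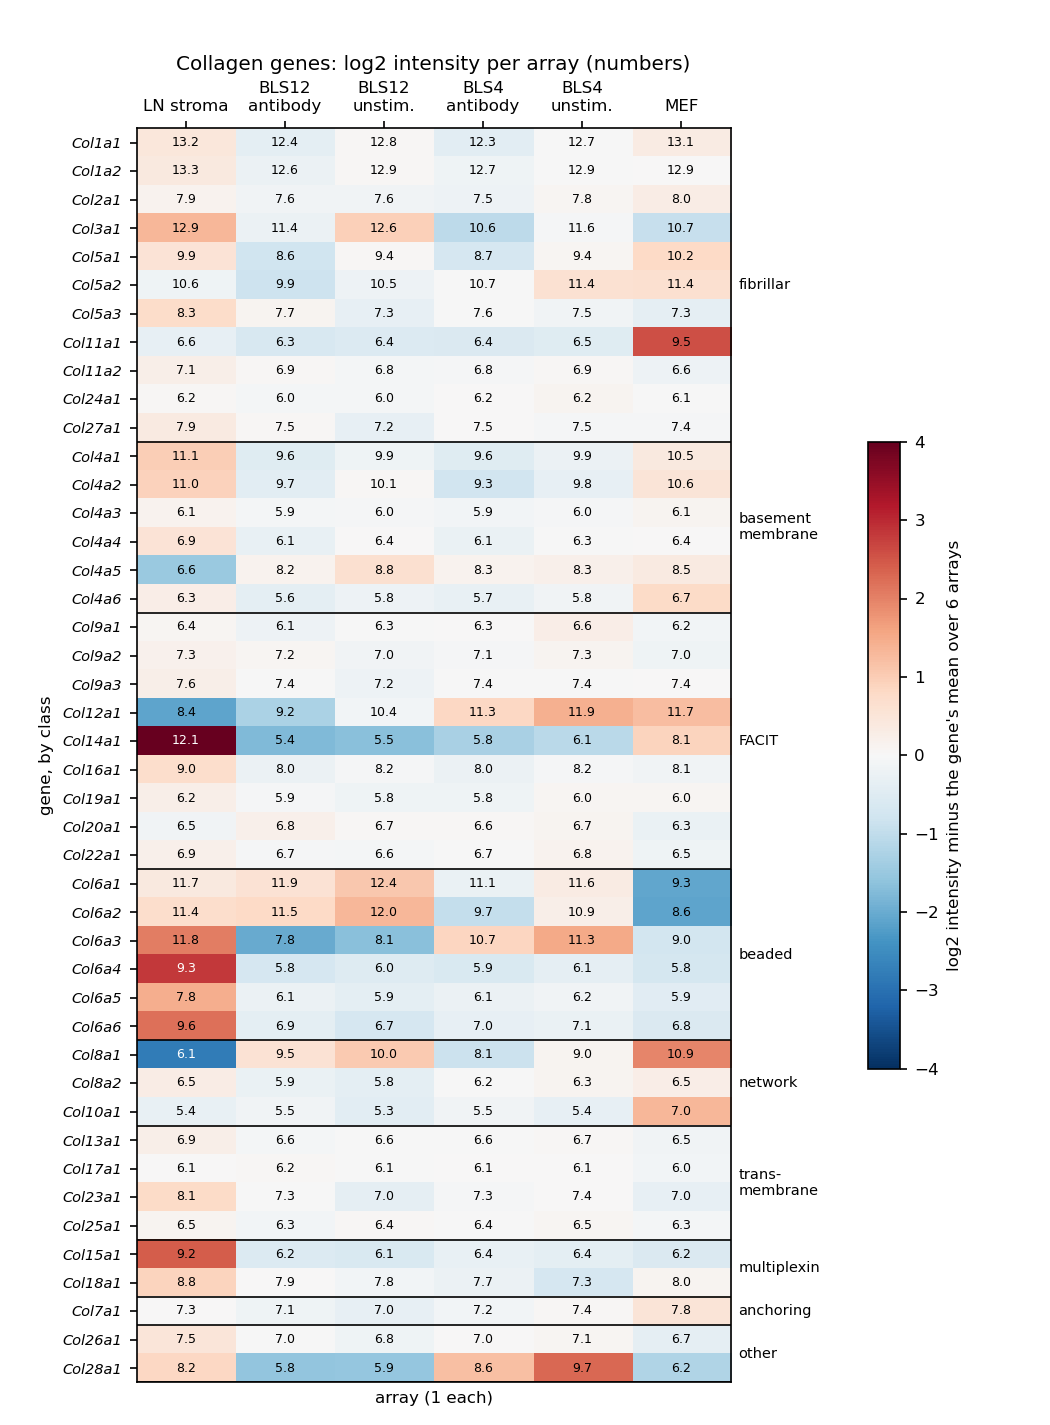
Heat map of the 44 collagens (rows, by class) on the 6 arrays (columns). The number in each cell is the log2 intensity and the colour is its deviation from the gene's mean over the 6 arrays. Col14a1, Col15a1 and Col6a4 to Col6a6 stand out as high in LN stroma, Col11a1 and Col10a1 as high in MEF, and Col6a3 as low in BLS12.

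The first comparison set LN stroma against MEF, and the second set it against the unstimulated lines. Both asked how the collagen profile of freshly isolated nodal stroma differed from that of cultured fibroblasts. LN stroma held more RNA than MEF for type III collagen, all 6 type VI chains, the FACIT gene Col14a1, Col15a1 and Col28a1. It held less for Col8a1, Col12a1 and Col11a1. With 1 array a group no test was possible, and a difference of at least 4-fold was counted. Against MEF, 9 of 44 collagens were higher in LN stroma by that measure and 3 were lower, beside 4.64% and 2.93% of 12613 genes (7.57% in either direction). The median collagen difference was 0.37, beside -0.11 over all those genes. Against both unstimulated lines, 4 of 43 collagens were at least 4-fold higher in LN stroma and 2 lower, beside 3.52% and 0.569% of 12827 genes (4.09% in either direction). The median there was 0.36, beside -0.09 over all genes.

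Among the fibrillar collagens, those of type I hardly varied and that of type III did. Col1a1, which encodes the larger part of type I collagen, was at 13.23 in LN stroma, 12.38 in BLS12 with antibody, 12.83 in BLS12 unstimulated, 12.33 in BLS4 with antibody, 12.74 in BLS4 unstimulated and 13.11 in MEF. Col1a2, its partner chain, lay between 12.64 in antibody-treated BLS12 and 13.26 in LN stroma. Both were therefore among the flat members. Col3a1, whose product forms type III collagen, the main collagen of reticular fibres beside type I, was at 12.94 in LN stroma, 11.37 in BLS12 with antibody, 12.56 in BLS12 unstimulated, 10.57 in BLS4 with antibody, 11.57 in BLS4 unstimulated and 10.69 in MEF. LN stroma was the highest array, ahead of MEF by 2.26, of unstimulated BLS4 by 1.38 and of unstimulated BLS12 by 0.39. The antibody-treated BLS4 array and MEF lay closest together.

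Type V collagen starts the assembly of type I fibrils, and its 3 chains did not share a pattern. Col5a1 was at 9.92 in LN stroma, 8.56 in BLS12 with antibody, 9.41 in BLS12 unstimulated, 8.69 in BLS4 with antibody, 9.45 in BLS4 unstimulated and 10.15 in MEF. Col5a2 was at 10.59 in LN stroma, 9.93 and 10.54 in BLS12 with and without antibody, 10.73 and 11.36 in BLS4 with and without antibody, and 11.38 in MEF. MEF was thus the highest array for Col5a1 and Col5a2. Col5a3 was highest in LN stroma (8.34) and lowest in MEF (7.25), with the lines between 7.29 and 7.72. Col11a1, a chain of the type XI collagen of cartilage fibrils, was at 6.63 in LN stroma, 6.32 to 6.46 in the lines and 9.54 in MEF. LN stroma minus MEF was -2.91, and MEF stood above the other 5 arrays. On each array, 3 of the 8 chondrocyte and osteoblast markers were at or above the median, and their summed intensity was 650 in LN stroma, 346 to 729 in the lines and 492 in MEF. In MEF, Sox9 (7.79), Comp (6.06) and Alpl (5.97) were at or above the median, and Acan (4.54), Matn1 (4.42), Matn3 (5.65), Sp7 (4.95) and Ibsp (3.94) were below it. Matn3 was higher in MEF than on the other 5 arrays (4.67 to 4.95). The part of cartilage or bone cells in the Col11a1 value was not tested.

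The basement membrane collagens showed no 4-fold difference between LN stroma and MEF. Col4a1 and Col4a2 encode the chains of the common basement membrane network. Their genes lie head to head, and the 300-base promoter windows that RefSeq gives for them on mouse build GRCm38.p6 share 78 bases, at chr8:11312777-11312854. The windows cover chr8:11312777-11313076 on the minus strand for Col4a1 and chr8:11312555-11312854 on the plus strand for Col4a2. They are printed because the genes lie head to head. Whether the shared bases bear on the levels of the pair was not tested. Both strands of the windows were searched for 3 motifs, the CCAAT box, the GC box (GGGCGG) and the TATA box (TATAAA). Capitals mark the matches, which read ATTGG or CCGCCC where they lie on the other strand.
Col4a1: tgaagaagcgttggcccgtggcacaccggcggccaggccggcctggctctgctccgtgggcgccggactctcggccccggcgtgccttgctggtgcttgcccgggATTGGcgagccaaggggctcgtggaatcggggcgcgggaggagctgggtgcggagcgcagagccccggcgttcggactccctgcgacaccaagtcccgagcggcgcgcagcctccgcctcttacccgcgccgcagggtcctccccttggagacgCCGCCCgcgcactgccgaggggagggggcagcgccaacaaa
Col4a2: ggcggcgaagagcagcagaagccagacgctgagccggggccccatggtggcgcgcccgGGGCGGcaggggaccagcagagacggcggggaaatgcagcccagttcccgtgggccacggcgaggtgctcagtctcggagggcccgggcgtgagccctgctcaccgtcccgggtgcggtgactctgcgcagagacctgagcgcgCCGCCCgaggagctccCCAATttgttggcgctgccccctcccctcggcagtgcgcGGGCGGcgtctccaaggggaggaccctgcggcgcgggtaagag
The Col4a1 window held 1 CCAAT and 1 GGGCGG, and the Col4a2 window held 1 CCAAT and 3 GGGCGG. Across 32851 RefSeq promoter windows of that length, 37.4% held a CCAAT and 35.7% a GGGCGG on either strand. Col4a1 was at 11.09 in LN stroma, 9.61 in BLS12 with antibody, 9.95 in BLS12 unstimulated, 9.61 in BLS4 with antibody, 9.88 in BLS4 unstimulated and 10.51 in MEF. Col4a2 was at 11.00 in LN stroma, 9.66 and 10.12 in BLS12 with and without antibody, 9.31 and 9.76 in BLS4 with and without antibody, and 10.59 in MEF. For both genes the order was therefore LN stroma, then MEF, then the lines. LN stroma exceeded unstimulated BLS12 by 1.15 for Col4a1 and 0.88 for Col4a2, and unstimulated BLS4 by 1.22 and 1.24.

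Another pair of neighbouring type IV genes did not share an order. Col4a5, a chain of the network found in kidney and smooth muscle basement membranes, was at 6.65 in LN stroma, 8.25 and 8.76 in BLS12 with and without antibody, 8.26 and 8.31 in BLS4 with and without antibody, and 8.47 in MEF. It was the type IV gene for which LN stroma was the lowest array, with differences of -1.82 against MEF, -2.12 against unstimulated BLS12 and -1.67 against unstimulated BLS4. Col4a6, its neighbour, was at 6.26 in LN stroma, 5.59 to 5.85 in the lines and 6.74 in MEF. Col4a3 and Col4a4 varied by 0.27 and 0.83.

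Of the 9 FACIT genes, Col14a1 and Col12a1 differed by over 4-fold between LN stroma and both MEF and the unstimulated lines, in opposite directions. Col14a1 encodes type XIV collagen, which binds fibrils through decorin. It was at 12.07 in LN stroma, 5.39 in BLS12 with antibody, 5.47 in BLS12 unstimulated, 5.84 in BLS4 with antibody, 6.09 in BLS4 unstimulated and 8.06 in MEF. LN stroma was 4.01 above MEF (16.1-fold) and 6.60 and 5.98 above unstimulated BLS12 and BLS4, the widest span of any collagen. In BLS12 the values lay below the array median, so the size of that difference is approximate. Col12a1, whose product type XII collagen also lies on type I fibrils, was at 8.36 in LN stroma, 9.20 and 10.38 in BLS12 with and without antibody, 11.29 and 11.90 in BLS4 with and without antibody, and 11.71 in MEF. LN stroma was the lowest array, with differences of -3.34 against MEF, -2.01 against unstimulated BLS12 and -3.53 against unstimulated BLS4. Against antibody-treated BLS12 the difference was -0.84.

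The 6 type VI chains were higher in LN stroma than in MEF, 5 of them by at least 4-fold. Type VI collagen is assembled from the products of Col6a1, Col6a2 and another chain, usually that of Col6a3. The chains of Col6a4, Col6a5 and Col6a6 resemble that of Col6a3. Col6a1 was at 11.71 in LN stroma, 11.91 in BLS12 with antibody, 12.40 in BLS12 unstimulated, 11.06 in BLS4 with antibody, 11.64 in BLS4 unstimulated and 9.25 in MEF. Col6a2 was at 11.37 in LN stroma, 11.48 and 12.01 in BLS12 with and without antibody, 9.73 and 10.91 in BLS4 with and without antibody, and 8.55 in MEF. MEF was the lowest array for both genes. Col6a3 was at 11.83 in LN stroma, 7.79 and 8.12 in BLS12 with and without antibody, 10.66 and 11.31 in BLS4 with and without antibody, and 9.05 in MEF. For Col6a3 the BLS12 arrays, and not MEF, were the lowest. LN stroma exceeded MEF by 2.46 for Col6a1, 2.81 for Col6a2 and 2.79 for Col6a3.

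The 3 genes for Col6a3-like chains shared another pattern, in which LN stroma stood alone. Col6a4 was at 9.28 in LN stroma and between 5.77 and 6.09 on the other 5 arrays. Col6a5 was at 7.80 in LN stroma and between 5.89 and 6.22 elsewhere. Col6a6 was at 9.56 in LN stroma and between 6.69 and 7.08 elsewhere. LN stroma was therefore ahead of MEF by 3.52, 1.91 and 2.78 for Col6a4, Col6a5 and Col6a6. In MEF, Col6a4 and Col6a5 lay near the array median (5.74), so the size of their differences is approximate. Col6a5 fell short of 4-fold in the entry used, whereas its less bright second entry gave 8.13 in LN stroma and 4.05 to 4.49 elsewhere. The second entry of Col6a6 gave 10.02 in LN stroma and 5.20 to 5.56 elsewhere, also with LN stroma alone at the top.

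**Figure D2:**
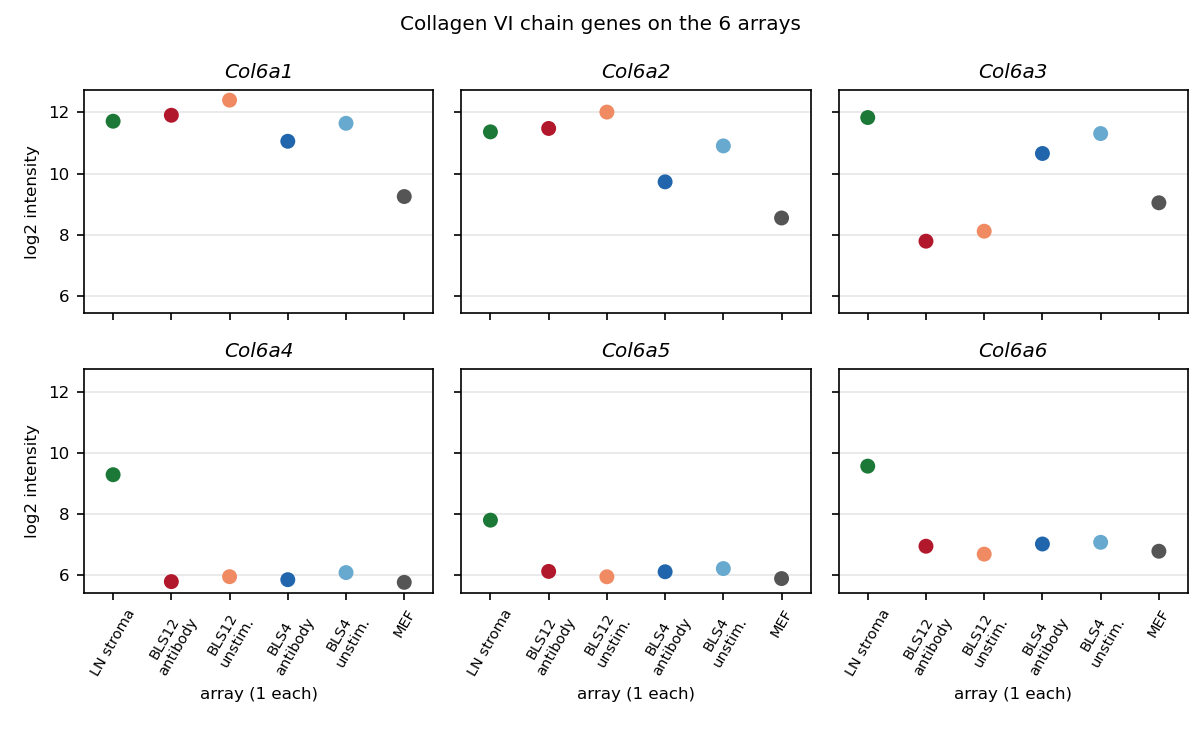
Log2 intensity (vertical axis) of the 6 type VI chain genes on each of the 6 arrays (horizontal axis, 1 point per array). MEF was lowest for Col6a1 and Col6a2, both BLS12 arrays were lowest for Col6a3, and LN stroma stood above the other 5 arrays for Col6a4, Col6a5 and Col6a6.

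In the remaining classes, Col15a1 and Col28a1 were at least 4-fold higher in LN stroma than in MEF, and Col8a1 was at least 4-fold lower. Col15a1, which encodes a proteoglycan collagen of basement membrane zones, was at 9.18 in LN stroma, 6.19 and 6.14 in BLS12 with and without antibody, 6.43 and 6.35 in BLS4 with and without antibody, and 6.17 in MEF. LN stroma was 3.01 above MEF and 3.04 and 2.83 above unstimulated BLS12 and BLS4. The values outside LN stroma lay near the array medians, so the size of these differences is approximate. Col18a1, a relative whose fragment is endostatin, was highest in LN stroma too (8.80, against 7.26 to 7.94 in the lines and 8.05 in MEF). Col8a1, which forms short-chain networks around vessels and beneath the corneal endothelium, went the other way. It was at 6.13 in LN stroma, 9.49 and 9.97 in BLS12 with and without antibody, 8.06 and 9.03 in BLS4 with and without antibody, and 10.88 in MEF. LN stroma was the lowest array, and MEF exceeded it 26.9-fold, a log2 difference of -4.75 for LN stroma. The LN stroma value lay near the array median (5.80), so the size of that difference is approximate. Col10a1, the collagen of hypertrophic cartilage, reached the array median in MEF alone (7.02, against 5.38 in LN stroma and 5.26 to 5.54 in the lines). Col28a1, whose product shares von Willebrand factor A domains with type VI collagen, was at 8.23 in LN stroma, 5.85 and 5.86 in BLS12 with and without antibody, 8.61 and 9.70 in BLS4 with and without antibody, and 6.22 in MEF. LN stroma and BLS4 stood above MEF and BLS12, with LN stroma ahead of MEF by 2.01. Col23a1, a transmembrane collagen, was at 8.11 in LN stroma and 6.98 to 7.36 elsewhere.

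**Figure D3:**
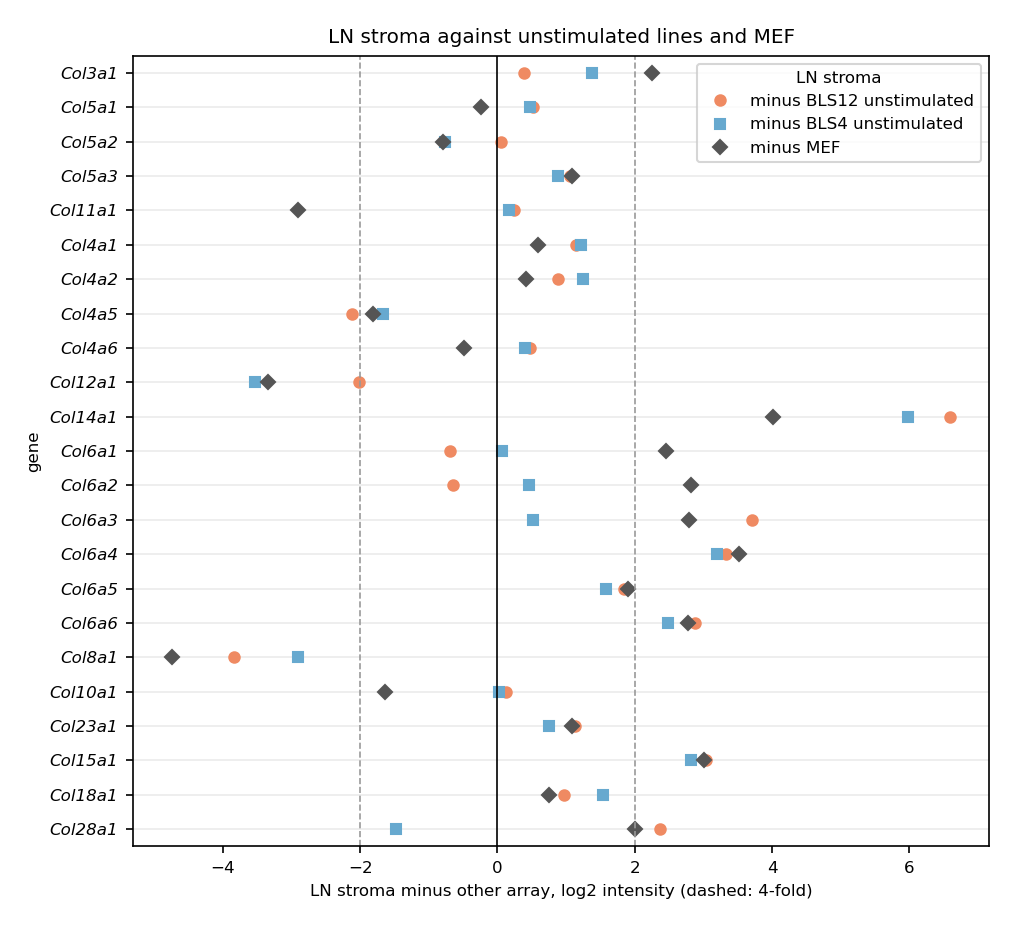
Log2 difference of LN stroma minus unstimulated BLS12, minus unstimulated BLS4 and minus MEF (horizontal axis) for the 23 collagens that spanned at least 1 log2 unit (vertical axis); 1 array each, with dashed lines at 4-fold. Col14a1, Col15a1, Col6a4 and Col6a6 lie beyond 4-fold on the right and Col8a1 and Col12a1 on the left in all 3 comparisons.

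The unstimulated lines were then set against MEF, both being cultured cells. They differed in tissue, age (adult against embryo) and strain, and as established lines against fibroblast cultures. These factors cannot be told apart. The type VI chain genes Col6a1 and Col6a2 were higher in both lines and Col11a1 was lower in both. Counting a collagen where both lines differed from MEF by at least 4-fold in 1 direction, 2 of 44 were higher and 1 lower, beside 0.308% and 1.14% of 12676 genes (1.44% in either direction). Col6a1 was above MEF by 3.15 in BLS12 and 2.39 in BLS4, and Col6a2 by 3.46 in BLS12 and 2.36 in BLS4. Col11a1 was lower than in MEF in both lines (-3.15 in BLS12 and -3.08 in BLS4). Col14a1 lay at -2.59 in BLS12 and -1.97 in BLS4, so that only BLS12 passed 4-fold. Col10a1 lay at -1.76 in BLS12 and -1.66 in BLS4. The median collagen difference was 0.06, beside 0.01 over all genes. The counts depended on which line was used: leaving out BLS12 gave 4 collagens higher and 1 lower, and leaving out BLS4 gave 2 higher and 2 lower. No share of all genes is given beside these single-line counts. Col6a3 and Col28a1, at 2.26 and 3.48 above MEF in BLS4, were at -0.93 and -0.37 in BLS12. The comparisons with MEF, with LN stroma and with the unstimulated lines share arrays and were not independent of each other.

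BLS12 and BLS4 are both LN stromal lines, and each had 2 arrays, so their difference could be tested in an additive model of line and antibody (limma, 1 residual degree of freedom, Benjamini-Hochberg adjustment over 11988 genes). BLS12 was higher for Col6a1, Col6a2, Col8a1 and Col3a1 and lower for Col6a3, Col28a1 and Col12a1. Of 43 collagens tested, 4 were higher in BLS12 and 5 lower at an adjusted p under 0.05, beside 12.2% and 11.4% of all genes. The 9 collagens amount to 20.9% of those tested, beside 23.6% of all genes in either direction, so collagens as a family were not called more often than genes at large. Without the antibody term in the model, 2 of the 9 remained (Col6a3 and Col28a1).

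The genes of the 3 main type VI chains differed between the lines in opposite directions. Their RefSeq windows on GRCm38.p6 were added after these values were seen. Col6a1 and Col6a2 are neighbours on 1 chromosome and Col6a3 lies on another. The windows cover chr10:76725995-76726294 for Col6a1, chr10:76623355-76623654 for 1 of 2 start sites of Col6a2 and chr1:90843922-90844221 for Col6a3, each on the minus strand. Capitals mark GGGCGG or CCGCCC, some of them overlapping.
Col6a1: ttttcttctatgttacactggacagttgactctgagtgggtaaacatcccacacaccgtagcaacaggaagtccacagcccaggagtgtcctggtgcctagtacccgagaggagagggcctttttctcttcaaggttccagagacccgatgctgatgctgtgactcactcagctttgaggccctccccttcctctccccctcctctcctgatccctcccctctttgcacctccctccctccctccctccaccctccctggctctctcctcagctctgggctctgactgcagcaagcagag
Col6a2: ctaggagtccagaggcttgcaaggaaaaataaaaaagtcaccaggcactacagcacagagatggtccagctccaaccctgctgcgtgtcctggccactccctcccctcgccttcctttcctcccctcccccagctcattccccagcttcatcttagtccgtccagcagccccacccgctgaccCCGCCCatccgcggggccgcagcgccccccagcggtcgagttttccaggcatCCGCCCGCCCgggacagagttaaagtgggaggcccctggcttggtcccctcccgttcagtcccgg
Col6a3: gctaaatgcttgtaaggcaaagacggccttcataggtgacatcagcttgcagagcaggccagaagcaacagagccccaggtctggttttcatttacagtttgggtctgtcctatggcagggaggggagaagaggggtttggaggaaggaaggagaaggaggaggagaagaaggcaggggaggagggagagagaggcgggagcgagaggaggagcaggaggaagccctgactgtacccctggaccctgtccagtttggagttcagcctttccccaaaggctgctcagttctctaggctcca
The Col6a2 window held 3 matches to GGGCGG. None of the 3 motifs searched was found in the windows of Col6a1 and Col6a3, which says only that these letters are not there. Col6a2 was higher in BLS12 than in BLS4 by 1.42 (SE 0.193, limma adjusted p = 0.0074), and its BLS12 arrays (11.48 and 12.01) did not overlap the BLS4 arrays (9.73 and 10.91). Col6a1 was higher in BLS12 by 0.80 (SE 0.138, limma adjusted p = 0.0144). Col6a3 went the other way, with a difference of -3.03 (SE 0.153, limma adjusted p = 0.0006), its BLS12 arrays at 7.79 and 8.12 and its BLS4 arrays at 10.66 and 11.31. LN stroma lay above both unstimulated lines for Col6a3 alone of the 3, by 3.71 against unstimulated BLS12 and 0.52 against unstimulated BLS4. Col6a4, Col6a5 and Col6a6 did not pass the test between the lines.

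Outside type VI collagen, Col8a1 and Col3a1 were the other genes higher in BLS12. Col8a1 was higher by 1.18 (SE 0.172, limma adjusted p = 0.0091) and Col3a1 by 0.90 (SE 0.143, limma adjusted p = 0.0116). For Col8a1 the arrays of the lines did not overlap, whereas for Col3a1 antibody-treated BLS12 (11.37) lay below unstimulated BLS4 (11.57). Lower in BLS12 were Col28a1 with a difference of -3.30 (SE 0.268, limma adjusted p = 0.0017) and Col12a1 with -1.80 (SE 0.182, limma adjusted p = 0.0033). Their values given above show that in each condition the BLS12 array was below the BLS4 array. Col28a1 lay near the array median in BLS12, so the size of its difference is approximate. Col5a2 was lower, at -0.81 (SE 0.137, limma adjusted p = 0.0138). Col14a1 was lower, at -0.54 (SE 0.141, limma adjusted p = 0.0452), a call that was lost when each array was centred on its median. Type I collagen did not pass, with 0.07 for Col1a1 and 0.01 for Col1a2. The neighbours Col3a1 and Col5a2, whose genes lie side by side, moved apart between the lines: Col3a1 was higher and Col5a2 lower in BLS12. In LN stroma against MEF their differences were also opposite, 2.26 and -0.79. With antibody, however, both had negative estimates, -1.10 and -0.62, neither past the adjusted test. Each line had 2 arrays that differed in antibody, so the spread between replicate cultures of a line could not be measured. The labels do not say whether a line was derived more than once. After the line and antibody terms, the residual is the difference between the lines in their response to antibody, part of which may be technical. The p-values rest on that residual, moderated by a prior from all genes tested (4.59 degrees of freedom), and not on replicate cultures. Mesothelial and epithelial markers also differed between the lines: Upk3b was higher in BLS12 by 3.06, Msln by 1.90, Krt19 by 1.34 and Wt1 by 0.56, each at a limma adjusted p under 0.05. The summed level of the 8 such markers was 1036 and 2018 in BLS12 with and without antibody, against 481 and 504 in BLS4 with and without antibody. Epcam and Cdh1 were too dim to enter the model, and the part of these markers in the collagen differences was not tested.

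**Figure D4:**
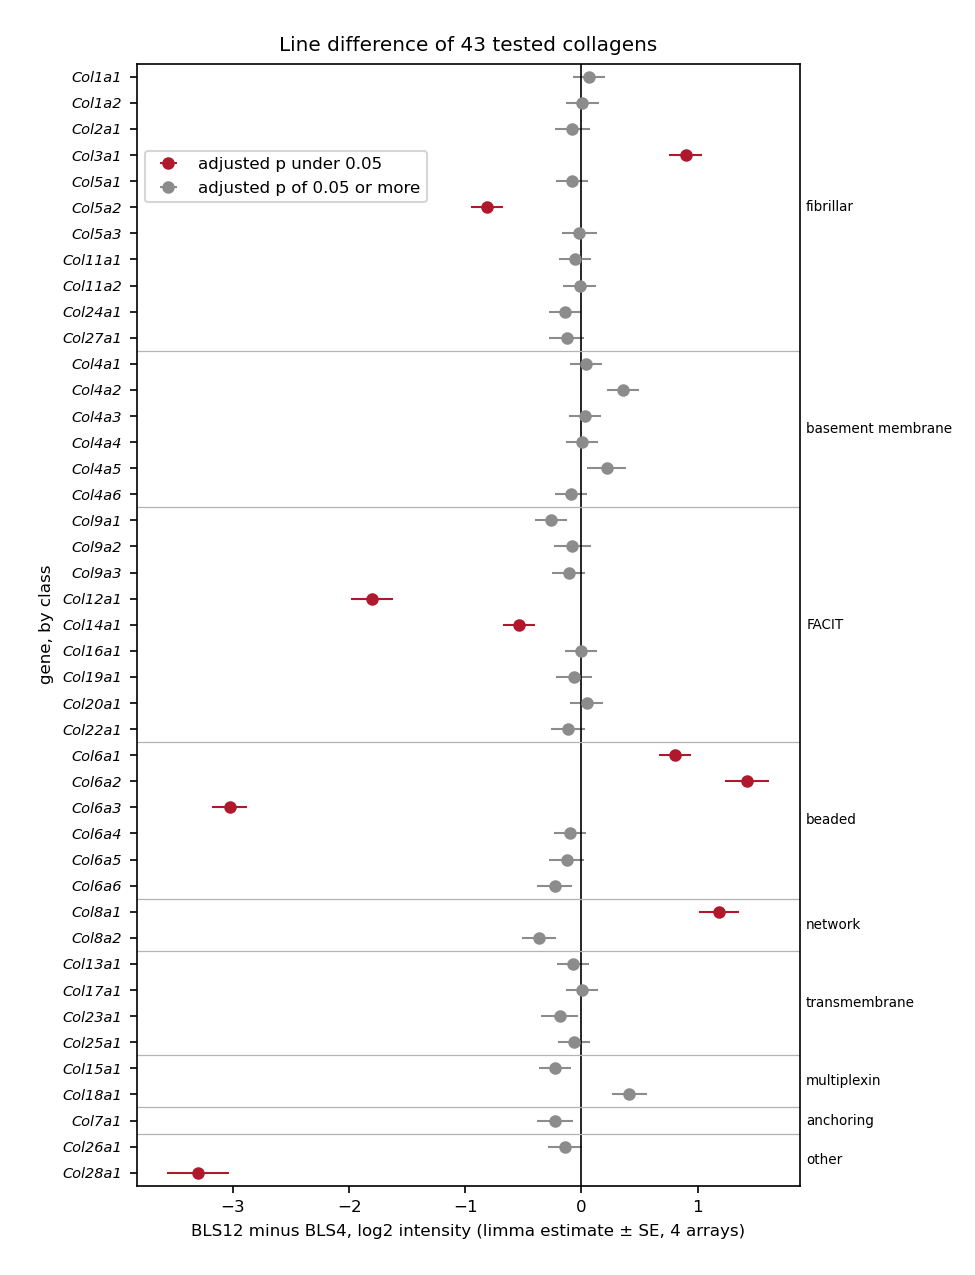
Difference of BLS12 minus BLS4 in log2 intensity (horizontal axis; limma estimate with its SE over 4 arrays) for the 43 collagens tested (vertical axis, by class). The 9 with an adjusted p under 0.05 are in red, 4 to the right of 0 (Col3a1, Col6a1, Col6a2, Col8a1) and 5 to the left (Col5a2, Col12a1, Col14a1, Col6a3, Col28a1).

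The antibody comparison asked whether activating LTβR for 2 days altered collagen RNA in the lines. No collagen passed the limma test after adjustment, in a model that called 0.275% of 11988 genes (0.2% higher and 0.0751% lower). Col3a1, Col5a1, Col5a2, Col12a1 and Col6a2 had values at least 0.5 lower with antibody in both lines, without passing that test. At an unadjusted p under 0.05, 10 of 43 collagens were lower with antibody and 0 higher, beside 5.91% and 5.73% of all genes. Values were lower with antibody in both lines for 25 collagens (58.1%), beside 31.5% of all genes, and higher in both for 5, beside 28.4%. The remaining 13 differed in sign between the lines. Those at least 0.5 lower in both lines were 5 collagens (11.6%), beside 1.51% of genes, and at least 0.5 higher in both were 0, beside 2% of genes. The median antibody difference of the collagens was -0.13, beside -0.02 over all genes.

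Among fibrillar collagens, 7 of 11 were lower with antibody in both lines, beside 31.5% of all genes. The windows of the 2 with the largest antibody difference, Col3a1 and Col5a1, lie at chr1:45311288-45311587 and chr2:27886175-27886474 on the plus strand (RefSeq, GRCm38.p6). Capitals mark TATAAA in the first, and GGGCGG or CCGCCC in the second.
Col3a1: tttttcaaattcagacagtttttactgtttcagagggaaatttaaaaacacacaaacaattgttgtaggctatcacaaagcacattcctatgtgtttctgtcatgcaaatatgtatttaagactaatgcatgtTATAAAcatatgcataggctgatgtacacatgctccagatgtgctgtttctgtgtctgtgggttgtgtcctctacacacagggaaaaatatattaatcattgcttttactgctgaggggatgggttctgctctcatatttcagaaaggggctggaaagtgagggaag
Col5a1: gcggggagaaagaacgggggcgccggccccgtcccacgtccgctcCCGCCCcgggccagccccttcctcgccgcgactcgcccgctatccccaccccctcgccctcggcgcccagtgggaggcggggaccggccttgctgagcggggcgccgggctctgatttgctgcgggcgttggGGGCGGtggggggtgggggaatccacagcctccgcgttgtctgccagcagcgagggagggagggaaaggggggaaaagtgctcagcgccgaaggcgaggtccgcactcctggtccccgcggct
These windows share none of the motifs searched, and across all windows 13.6% held a TATAAA (or TTTATA). Among the 38 windows available for 35 of the 44 collagens, 13 held a CCAAT, 5 a TATAAA and 23 a GGGCGG. Over all 32851 windows the shares were 37.4% for CCAAT, 13.6% for TATAAA and 35.7% for GGGCGG. In BLS12, Col3a1 was at 11.37 with antibody and 12.56 unstimulated, and in BLS4 it was at 10.57 with antibody and 11.57 unstimulated. Col3a1 was lower with antibody, at -1.10 (SE 0.143, limma adjusted p = 0.0735). Over the alternative settings its adjusted p ranged between 0.0324, with each array centred on its median, and 1, without the pairing by line. Col5a1 was lower, at -0.80 (SE 0.138, limma adjusted p = 0.111), with -0.85 in BLS12 and -0.76 in BLS4. Col5a2 was lower, at -0.62 (SE 0.137, limma adjusted p = 0.181), and by nearly the same in each line (-0.61 in BLS12 and -0.63 in BLS4). Col1a1 was at -0.43 and Col1a2 at -0.23. The fibrillar genes with positive estimates were Col5a3 (0.27), Col27a1 (0.21) and Col11a2.

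All 6 basement membrane collagens had lower values with antibody in both lines, beside 31.5% of all genes. The estimate was -0.30 for Col4a1, -0.45 for Col4a2, -0.28 for Col4a5, -0.27 for Col4a4, -0.17 for Col4a6 and -0.06 for Col4a3, and none passed the adjusted test. Among the FACIT genes, Col12a1 was lower, at -0.89 (SE 0.182, limma adjusted p = 0.151), with -1.18 in BLS12 and -0.61 in BLS4. Of the other 8, 3 were lower in both lines, beside the same 31.5%. For the 3 main type VI chains the estimates were -0.86 for Col6a2 (SE 0.193, limma adjusted p = 0.185), -0.54 for Col6a1 (SE 0.138, limma adjusted p = 0.232) and -0.49 for Col6a3 (SE 0.153, limma adjusted p = 0.327). All 3 were lower with antibody in both lines. Col6a2 differed more in BLS4 (-1.18) than in BLS12 (-0.53), a contrast that could not be tested with 1 array in each cell of the design. Col6a5 and Col6a6 had opposite signs in the lines. Col8a1 was lower, at -0.73 (SE 0.172, limma adjusted p = 0.202). Col28a1 was at -1.10 in BLS4 and -0.01 in BLS12, where it lay close to the array median. The basement membrane zone genes Col18a1 (0.26) and Col15a1 (0.06) had positive values in both lines.

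The antibody differences were also grouped by probe signal, which is no measure of expression between genes. Of the 12 collagens whose mean over the 4 cell line arrays was at least 9, all 12 were lower with antibody in both lines, with a median difference of -0.58. Of 2352 genes with such a signal, 40.2% were lower in both lines, with a median of -0.06. Of the 31 dimmer collagens, 13 were lower in both lines and the median was -0.04, beside -0.01 for all dimmer genes. The limit of 9 was chosen after the values were seen and carries no test. The 4 antibody and unstimulated arrays differed in other ways too: the 11 leukocyte markers summed to 1139 with antibody and 524 unstimulated in BLS12, and to 740 with antibody and 768 unstimulated in BLS4. In BLS12 most of that difference lay in Lyz2, at 9.63 with antibody and 7.82 unstimulated, while Ptprc was below the array median on both arrays. The part of these differences in the collagen values was not tested.

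**Figure D5:**
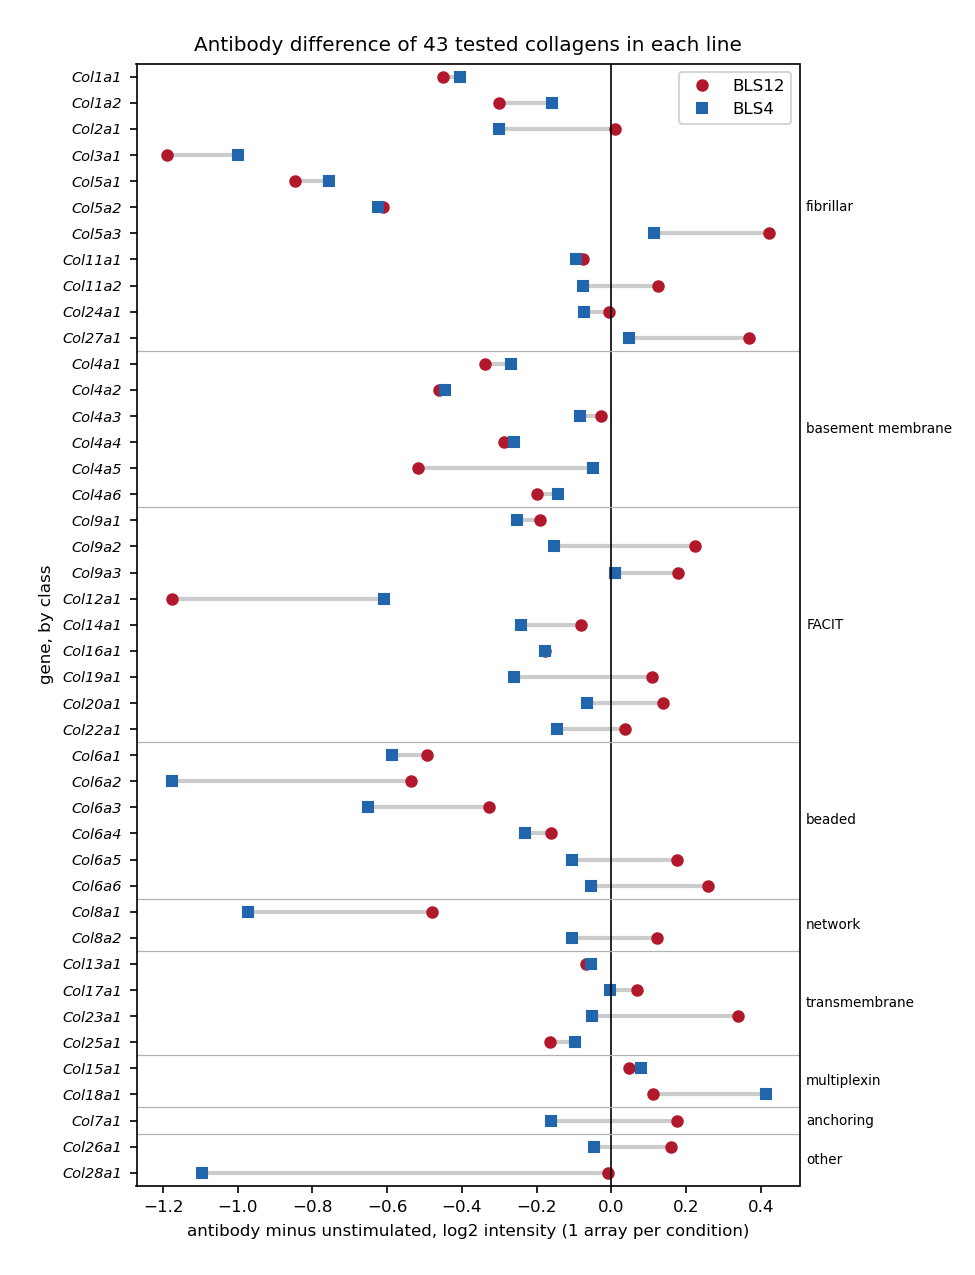
Antibody-treated minus unstimulated log2 intensity (horizontal axis) of the 43 collagens tested (vertical axis, by class), with a red circle for BLS12 and a blue square for BLS4, 1 array per condition. For Col3a1, Col5a1, Col5a2, Col12a1 and Col6a2 both points lie at least 0.5 below 0.

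Genes that modify, cleave and crosslink collagens were followed as a list of 32, of which 29 had an entry. Of the 25 tested with limma, 0 passed with antibody after adjustment, and 3 were higher and 6 lower at an unadjusted p under 0.05, beside 5.73% and 5.91% of all genes. Their median difference was -0.20. The gene nearest to the threshold was Lox, whose enzyme crosslinks collagen and elastin. Lox was at 8.45 in BLS12 with antibody and 11.34 in BLS12 unstimulated, and at 11.16 in BLS4 with antibody and 12.56 in BLS4 unstimulated (limma adjusted p = 0.0941). Between the lines 3 of 25 were higher in BLS12 and 11 lower (56% in either direction), beside 12.2%, 11.4% and 23.6% of all genes. Those higher were the lysyl hydroxylase gene Plod2, the prolyl 3-hydroxylase gene P3h2 and P3h4. Those lower were P4ha2, Plod1, Plod3, P3h3, Crtap, Fkbp14, Pcolce, Lox, Loxl1, Loxl3 and Loxl4. Loxl1, which encodes a relative of lysyl oxidase, was lower in BLS12, at -3.55 (limma adjusted p = 0.0008). Against MEF, LN stroma was at least 4-fold higher for 1 of 27 (Pcolce2, an enhancer of procollagen cleavage, by 3.46) and lower for 3 (P4ha3 at -3.00, Tll1 at -2.98 and Lox at -2.95), beside 4.64% and 2.93% of all genes. Against both unstimulated lines, P3h2, Tll1 and Pcolce2 were higher in LN stroma, and P4ha3 and Lox were lower, beside 3.52% and 0.569% of all genes. Pcolce2 stood 6.47 above BLS12 and 5.61 above BLS4. Below the array median lay Pcolce2 in unstimulated BLS12 (5.02), P3h2 in unstimulated BLS4 (5.18), Tll1 in both lines and P4ha3 in LN stroma (5.26). The size of the differences that use those values is approximate. The unstimulated lines were lower than MEF for Tll1 and Pcolce2, beside 1.14% of all genes.

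Of 9 collagen receptor genes, 0 passed the adjusted limma test with antibody, with 1 higher and 4 lower at an unadjusted p under 0.05, beside 5.73% and 5.91% of all genes. Between the lines, 0 were higher and 3 lower in BLS12, beside 12.2% and 11.4%. Itga11, the α chain of an integrin that binds fibrillar collagen, was at 5.04 and 5.52 in BLS12 with and without antibody and at 8.62 and 10.34 in BLS4 with and without antibody, a difference of -4.20 (SE 0.296, limma adjusted p = 0.0011). Its BLS12 values lay below the array median, so the size of that difference is approximate. Ddr2, a receptor tyrosine kinase for fibrillar collagen, was lower, at -0.84, as was Mrc2, an endocytic collagen receptor, at -0.81. None of the 9 differed by 4-fold between LN stroma and MEF or between LN stroma and both lines. Of 16 genes for other basement membrane components, 15 had an entry, and 0 of 13 tested passed with antibody in limma, with 2 higher and 2 lower at an unadjusted p under 0.05, beside the same 5.73% and 5.91%. Between the lines 2 were higher and 4 lower in BLS12, beside 12.2% and 11.4%. Lama2, a laminin chain, was higher in BLS12 by 3.60 and Nid2, a nidogen that links laminin to type IV collagen, by 2.01. In BLS4 the Lama2 values lay below the array median, so its difference is approximate too. Lama5, Nid1, Hspg2 and Pxdn were lower in BLS12. Lama4, a laminin chain of vessels and mesenchyme, was higher in LN stroma than in MEF by 2.40 and was the only one of the 13 genes compared to pass 4-fold there, beside 7.57% of all genes.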

How the data were processed

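The deposited values were linear intensities for each probe set entry of a single-colour Affymetrix whole-transcript array, which the authors produced in Affymetrix Expression Console 1.1, per the submitters' processing notes. Neither its algorithm nor a genome build is given in the sources used here. Entries were named through the platform annotation. Intensities were taken to log2 without a floor. Only entries with 1 gene were used, and of the 999 genes with several entries the brightest. Genes entered the line model where at least 2 of 4 arrays were at or above the array median, and other comparisons where at least 1 array was. For the model of line and antibody, limma 3.58.1 in R 4.3.3 gave two-sided moderated tests (lmFit, then eBayes), and Benjamini-Hochberg adjustment ran over 11988 genes. It had 1 residual and 4.59 prior degrees of freedom. The arrays of a line are paired, since the labels give the line, and they deviated together (r = 0.85 across genes, which the 2 by 2 design makes equal for both lines). That correlation would arise from any lasting difference between the lines, so it does not show that cultures were handled in pairs. Single arrays were compared by a difference of at least 4-fold, with no test. The number of arrays limits the precision. Every gene of the family with an entry is described, by class. Promoter windows were printed for Col4a1, Col4a2 and the 2 fibrillar collagens with the largest antibody difference, and those of the 3 main type VI genes were added after their values were seen. The members, lists and thresholds were chosen with earlier results of these data known.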

Additional observations from a re-analysis of the deposited data

Results flagged for a closer look

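The contrasts below are those among the 23 collagens that spanned at least 1 log2 unit over the 6 arrays. For 11 of these, at least 1 difference lay on opposite sides of 0 in BLS12 and BLS4. No share of all genes was counted for this, so it is not read as a trait of collagens. Each rests on 1 array per condition, and none of these contrasts between the lines was tested. The values below are the BLS12 difference minus the BLS4 difference in log2 units, and those against MEF or LN stroma share the unstimulated arrays and so are not independent.

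Relative to MEF, the contrast was -3.85 for Col28a1, at -0.37 in BLS12 and 3.48 in BLS4. Col28a1 relative to LN stroma gave the same contrast with the sign turned (3.85, LN stroma minus line being 2.38 for BLS12 and -1.47 for BLS4), since the line arrays are shared. For Col6a3 the contrast against MEF was -3.19, at -0.93 in BLS12 and 2.26 in BLS4. For Col12a1 it was -1.52, at -1.33 in BLS12 and 0.19 in BLS4. Smaller contrasts against MEF were 0.45 for Col4a5, -0.39 for Col6a6, -0.38 for Col23a1 and -0.21 for Col15a1.

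For LN stroma minus the unstimulated line, the contrast was -1.10 for Col6a2, at -0.65 for BLS12 and 0.46 for BLS4. It was -0.76 for Col6a1, at -0.69 for BLS12 and 0.07 for BLS4, and 0.82 for Col5a2, at 0.06 for BLS12 and -0.76 for BLS4.

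For antibody minus unstimulated, and among the same 23 collagens, values were higher with antibody in BLS12 and lower in BLS4 for Col23a1 (0.34 and -0.05, a contrast of 0.39), Col6a6 (0.26 and -0.05, a contrast of 0.31) and Col6a5 (0.18 and -0.10, a contrast of 0.28). Over all 43 collagens tested, 13 had opposite signs in the lines. Of all genes, 31.5% were lower with antibody in both lines and 28.4% higher in both, so opposite signs were common among genes at large.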

How the results depend on the processing

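No called collagen changed direction under any alternative run. The median collagen difference of the unstimulated lines against MEF, 0.06, was -0.01 with the antibody-treated arrays, and -0.07 to 0.11 with 1 line left out. With antibody, the count of collagens called was 0 with quantile normalization, no filter on dim genes, the mean of all entries, 16 intensity units added before log2, and no replicate block (0 of 43 without the pairing by line). It was 1, Col3a1 and lower, when arrays were centred on their median (adjusted p = 0.0324), when genes had to reach the median on all 4 arrays (0.0338) and with an intensity trend (0.0496). Over the alternatives that leave out 1 array, the median antibody difference of the collagens ranged between -0.15 and -0.07. These are the medians of BLS4 alone and BLS12 alone, since leaving out either array of a line returns the difference in the other line. The fits without 1 array leave no residual degree of freedom and give no count. Between the lines, dropping the antibody term left 2 collagens called, 0 higher and 2 lower (Col6a3 and Col28a1). Col14a1 also lost its call with centring (adjusted p = 0.0581) and with 16 units added (0.0723). For LN stroma against MEF, 5 collagens were lower at 2-fold. Higher at 2-fold were the 9 counted at 4-fold and also Col6a5 (1.91), Col5a3 (1.09) and Col23a1 (1.09). For the unstimulated lines against MEF, 5 passed 2-fold, 3 of them lower, and with the antibody-treated arrays in their place 0 were higher and 2 lower. Leaving out 1 line gave 4 to 5 passing, 2 to 4 higher and 1 to 2 lower. For LN stroma against the lines, 1 was lower with quantile normalization or 16 units added and 0 with the antibody-treated arrays. No share of all genes is given beside these counts against MEF and against the lines, so they are not read against genes at large. The cause of these changes was not tested. Centring moved the median of all genes to -0.09 with antibody, against -0.02 as deposited, and to -0.18 for LN stroma against the lines, against -0.09. The chief limits are 1 array per condition, no control antibody, an unstated normalization, and dim collagens whose differences are approximate.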
